A study of Mus musculus with 3 samples.

Results

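Globin, haem and red cell genes were followed in blood cells of young, aged and GA-treated aged mice. The 8 genes were chosen by symbol from the 32285 genes of the deposited matrices, and each was found in all 3 libraries. They were the adult alpha globin genes Hba-a1 and Hba-a2, the adult beta globin genes Hbb-bs and Hbb-bt, the haem synthesis genes Alas2 and Fech, the membrane gene Slc4a1 and the enzyme gene Bpgm. Peripheral blood mononuclear cells (PBMCs) of young mice aged 8 weeks and aged mice of 16 months, both labelled as without treatment, and of mice of 16 months given glycyrrhizic acid (GA, a triterpenoid saponin of licorice) for 1 month were run on a droplet-based 3′ kit. Per the study's methods the mice were female C57BL/6, the young bought from a supplier and the aged reared in the laboratory, GA was injected into the tail vein every other day, and a control group received saline (PBS) by the same route. PBMCs came from several mice per group, but each group was 1 library in which no barcode is assigned to a mouse, so the spread between mice was not measured, groups and libraries cannot be told apart and nothing was tested. Values are unique molecular identifiers (UMIs, which count captured RNA molecules), and all intervals are 95% intervals of counting error only.

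Red cell barcodes were those with over 50% of their UMIs in Hba- and Hbb- genes, so their globin content was chosen and is no result. By this rule the young library held 1412 red cells among 10842 barcodes, the aged 6181 among 16038 and the aged-GA 5286 among 17332. Just outside the limit, with 40 to 50% globin, lay 19, 168 and 149 barcodes, and just inside it, with 50 to 60%, lay 30, 205 and 221. Most red cell barcodes held fewer than 200 genes (941, 5460 and 3812), and those of at least 200 genes numbered 471, 721 and 1474. The red cell markers Alas2, Slc4a1, Ank1, Epb42, Hemgn, Tspo2 and Bpgm had UMIs in both kinds of barcode in each library, but also in barcodes assigned to T cells by markers. The full set of 8 red cell markers averaged 39.2, 12.2 and 18.1 UMIs per barcode below 200 genes and 63.2, 17.1 and 31.5 at 200 genes or more. In the T cell barcodes it averaged 0.23, 0.56 and 0.91. The set includes Alas2, Slc4a1 and Bpgm, which are among the genes followed here, so these averages are not separate from their levels. The libraries held 58894294, 82260961 and 98155671 UMIs, of which adult globin took 21.05, 39.8 and 31.3%, and 50 to 62 barcode sequences were shared by any pair of libraries, at most 7 of them red cells in both. Leukocyte RNA was found among the red cell barcodes. Markers of T, B, NK and myeloid cells (32 genes, of which 26, 32 and 32 were detected) summed to 556, 3685 and 2877 CPM of non-globin UMIs below 200 genes, and 132, 549 and 682 barcodes of at least 200 genes held 3 or more of their UMIs. In these mixed barcodes the median gene number was above 1200 in every library, so values for red cell barcodes of at least 200 genes are also given for the 339, 172 and 792 barcodes with under 3 leukocyte marker UMIs.

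Haemoglobin is a tetramer of a pair of alpha and a pair of beta chains, each of which holds a haem, an iron-carrying ring that binds oxygen. Alas2 makes the erythroid form of 5-aminolevulinate synthase, which starts haem synthesis in mitochondria, and Fech makes ferrochelatase, which ends it by inserting the iron. Slc4a1 makes band 3, the anion exchanger that anchors the membrane skeleton, and Bpgm makes bisphosphoglycerate mutase, whose product 2,3-bisphosphoglycerate lowers the oxygen affinity of haemoglobin. Reticulocytes, the youngest red cells in blood, have lost their nucleus but still hold mRNA, which they lose while they mature in the circulation.

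In the mouse genome build GRCm38.p6 (mm10), the alpha genes Hba-a1 (ENSMUSG00000069919, chr11:32283672-32284486) and Hba-a2 (ENSMUSG00000069917, chr11:32296492-32297310) are neighbours on chromosome 11, and the beta genes Hbb-bs (ENSMUSG00000052305, chr7:103826523-103827928) and Hbb-bt (ENSMUSG00000073940, chr7:103812524-103813923) lie side by side on chromosome 7. Alas2 (ENSMUSG00000025270) is at chrX:150547417-150570622, Slc4a1 (ENSMUSG00000006574) at chr11:102348820-102365281 and Bpgm (ENSMUSG00000038871) at chr6:34476356-34505136. All are protein-coding genes. The coding sequences of the alpha pair, 429 bases with the stop codon in GENCODE M21, differ at 1 base (C381T, Hba-a1 first, counted from the start of the coding sequence), and those of the beta pair, 444 bases, at 1 base (C417T, Hbb-bs first). The windows around these bases are shown because no other base of the coding sequence tells the copies apart, with the base that differs in capitals.
Hba-a1: tgcctctctggaCaaattccttgcc
Hba-a2: tgcctctctggaTaaattccttgcc
Hbb-bs: ggctggagtggcCgctgccctggct
Hbb-bt: ggctggagtggcTgctgccctggct
The longest run that the transcripts share is 415 bases in the alpha pair and 430 bases in the beta pair. In the 3′ untranslated region (3′UTR), where a 3′ kit reads most, the alpha pair shares 74 bases, the whole 3′UTR of Hba-a1, whereas the beta pair shares no run above 8 bases. The split between Hba-a1 and Hba-a2 is therefore uncertain and is given as deposited, whereas Hbb-bs and Hbb-bt have distinct ends. The 430 bases shared by the beta pair do not tell its copies apart either. How reads that fit both copies of a pair were counted was not checked, so the alpha and Hbb-bt shares are also given as deposited.

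Sequences upstream of the start were read from RefSeq promoters of GRCm38.p6, which held 6 of the 8 genes. The 120 bases before the start of the globin genes, of Alas2 and of Bpgm are shown, 5′ to 3′ on the strand of the gene, so that the copies of each globin pair can be compared with each other and with a haem and an enzyme gene. Capitals mark matches, on either strand, to CACCC (letters that KLF1 is known to bind), to CCAAT (the CCAAT box), to GATAA (letters that GATA1 is known to bind) and to ATAAA (part of many TATA boxes).
Hba-a1 (chr11:32283552-32283671, plus strand): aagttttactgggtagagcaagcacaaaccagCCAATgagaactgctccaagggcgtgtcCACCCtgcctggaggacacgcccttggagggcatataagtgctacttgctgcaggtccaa
Hba-a2 (chr11:32296372-32296491, plus strand): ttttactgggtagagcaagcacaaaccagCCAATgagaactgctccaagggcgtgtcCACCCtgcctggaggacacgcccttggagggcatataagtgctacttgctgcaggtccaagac
Hbb-bs (chr7:103827929-103828048, minus strand): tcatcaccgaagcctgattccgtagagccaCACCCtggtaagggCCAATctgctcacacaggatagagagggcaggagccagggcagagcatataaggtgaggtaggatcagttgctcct
Hbb-bt (chr7:103813924-103814043, minus strand): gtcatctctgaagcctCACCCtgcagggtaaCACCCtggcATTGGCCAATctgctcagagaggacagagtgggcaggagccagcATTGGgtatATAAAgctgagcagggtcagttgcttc
Alas2 (chrX:150547297-150547416, plus strand): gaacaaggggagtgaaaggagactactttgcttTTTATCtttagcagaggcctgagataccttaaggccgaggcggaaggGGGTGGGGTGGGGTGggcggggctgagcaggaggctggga
Bpgm (chr6:34476236-34476355, plus strand): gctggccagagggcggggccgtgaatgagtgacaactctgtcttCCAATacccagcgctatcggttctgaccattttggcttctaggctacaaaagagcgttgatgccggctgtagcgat
The upstream sequences of the alpha pair share a run of 247 bases, against 14 bases in the beta pair. In the alpha pair a CCAAT and a CACCC stood 88 and 60 bases before the start of Hba-a1 and 91 and 63 before that of Hba-a2. Over 250 bases, not all of them shown, Hba-a1 and Hba-a2 each held 2 CACCC. Hbb-bs held 1 in the same span, 90 bases before the start, and Hbb-bt held 3, the nearest at 89 bases. Hbb-bt alone of the 4 adult globins matched ATAAA, 27 bases before the start. Hba-a1, Hba-a2 and Hbb-bs each held catataag in the bases shown, which these letters do not match, so a TATA box is not excluded there. Alas2 held 3 CACCC matches on the other strand, and a GATAA on the other strand overlapped an ATAAA match. Over 250 bases each of the globin genes and Alas2 held 1 GATAA match, which in the globins lay beyond the bases shown. Over 250 bases the Bpgm promoter held 3 CCAAT matches and no match to the other letters. Of 32851 promoters, 22.6% held GATAA, 52.0% CACCC, 33.8% CCAAT and 37.3% ATAAA in the same 250 bases, so a match is common and is given as a description of the sequence.

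The make-up of adult globin RNA differed between the libraries, below 200 genes most in Hbb-bt of the 4 genes. In red cell barcodes below 200 genes, Hba-a1 made up 17.7, 19.2 and 20.04% of adult globin UMIs in young, aged and aged-GA mice, Hba-a2 14.5, 14.5 and 15.1%, Hbb-bs 54.3, 55.2 and 54.9%, and Hbb-bt 13.5, 11.0 and 9.98%. The GENCODE M21 transcripts of the 4 genes have similar lengths (554 to 703 bases), and the kit counts ends, so these shares were not divided by length. Alpha globin was lowest in the young and highest in the aged-GA library, and Hbb-bt the reverse. Over all red cell barcodes Hbb-bt differed least of the 4 genes between aged and aged-GA mice (11.16 and 10.60%). There Hba-a1 took 19.22 and 20.04%, Hba-a2 14.56 and 15.18% and Hbb-bs 55.06 and 54.18%.

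**Figure D1:**
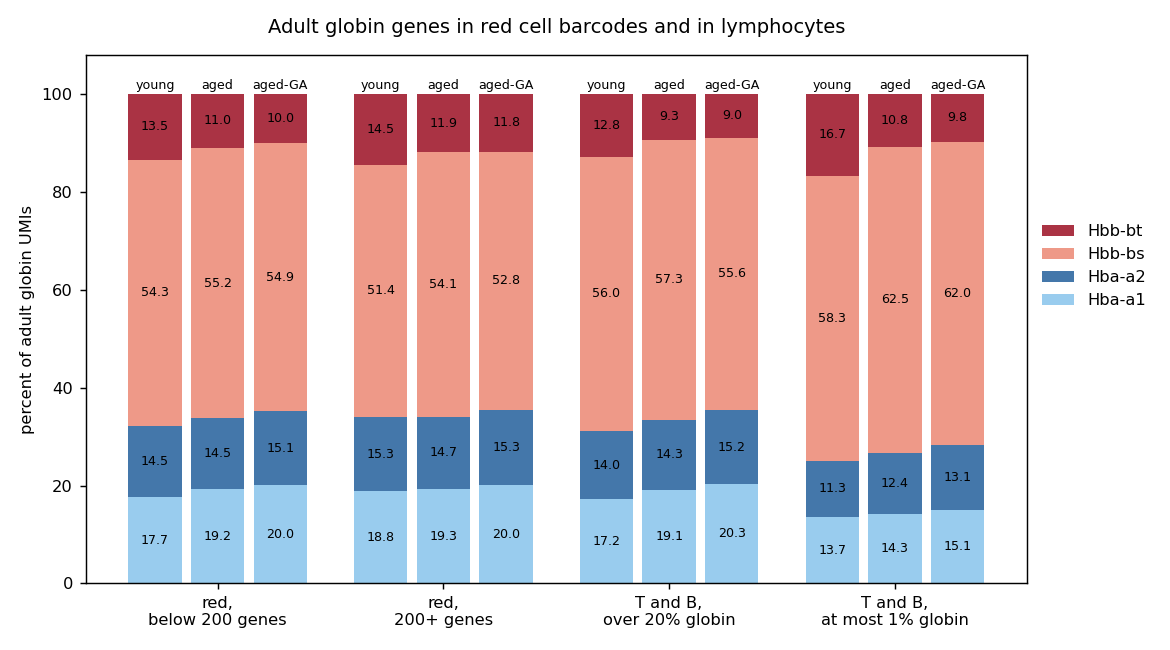
Percent of adult globin UMIs from each of the 4 adult globin genes (stacked bars, y axis) in 4 kinds of barcode (x axis) of the young, aged and aged-GA libraries. The Hbb-bt segment is largest in the young library in each kind of barcode, and the alpha segments are smallest in T- and B-gated barcodes of at most 1% globin.

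Over all red cell barcodes the alpha share of adult globin UMIs was 32.94% (32.92 to 32.97), 33.78% (33.77 to 33.80) and 35.22% (35.20 to 35.24). The share was 0.84 percentage points higher in aged than in young mice and 1.44 points higher in aged-GA than in aged mice. Below 200 genes the shares were 32.2% in young and 33.7% in aged mice. In the sum of barcodes of at least 200 genes they were 34.1 and 34.0%, a difference of -0.029 points. Among these, the young and aged shares were 34.49 and 34.51% with under 3 leukocyte marker UMIs, and 32.75 and 33.85% with 3 or more. Barcodes with 3 or more were 132 of 471 in young and 549 of 721 in aged mice. Aged-GA mice had the highest share both below 200 genes and at 200 genes or more. Per barcode, the middle 50% of red cells spanned 30.3 to 35.1% in young, 31.2 to 36.1% in aged and 32.7 to 37.7% in aged-GA mice, so the ranges of barcodes overlapped widely. Within the alpha pair, as deposited, Hba-a2 took 44.9, 43.1 and 43.1% of UMIs.

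Of adult beta globin UMIs, Hbb-bt took 20.75% (20.72 to 20.77) in young red cells, 16.85% (16.83 to 16.87) in aged ones and 16.37% (16.35 to 16.38) in aged-GA ones. Aged red cells were 3.90 points below young ones, and 3.98 points below in the sum of barcodes of at least 200 genes (22.0 against 18.1%). Among the latter, the young and aged shares were 22.6 and 19.3% with under 3 leukocyte marker UMIs and 20.4 and 17.6% with 3 or more. Both distances were smaller than that of the sum. Aged-GA red cells were 0.48 points below aged ones over all red cells, but 0.18 points above them in the sum of barcodes of at least 200 genes. Split by leukocyte markers, they were below aged ones on both sides, at 18.9 against 19.3% with under 3 leukocyte marker UMIs and 17.3 against 17.6% with 3 or more. Barcodes of the latter kind, with the lower share, were 132 of 471 in young, 549 of 721 in aged and 682 of 1474 in aged-GA mice. Per barcode the median share was 20.8, 17.0 and 16.0%, and the 5th percentile was 9.97, 5.53 and 2.65%. Barcodes with under 4% Hbb-bt made up 2.12, 2.65 and 8.17% of red cells, and in the aged-GA library 411 of these 432 barcodes had fewer than 200 genes.

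Embryonic globin genes were close to absent. In red cell barcodes Hba-x had 3, 12 and 3 UMIs, Hbb-y 7, 9 and 11, Hbb-bh1 26, 35 and 26, and Hbb-bh2 4, 1 and 2, beside 12138894, 31012785 and 28959268 adult globin UMIs. Reads of embryonic globins cannot be told apart here from adult reads assigned to a similar copy.

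Alas2 and Fech, the first and last steps of haem synthesis, were lower in aged than in young red cells relative to globin, and higher in aged-GA than in aged red cells. Below 200 genes, Alas2 had 14001, 38942 and 40609 UMIs in the young, aged and aged-GA libraries, a median of 14, 7 and 10 UMIs per barcode. Per 10000 adult globin UMIs the young library had 19.4 (19.1 to 19.7), the aged 14.6 (14.4 to 14.7) and the aged-GA 21.4 (21.2 to 21.6), intervals that did not overlap. The log2 ratio was -0.41 (-0.44 to -0.39) for aged over young and 0.56 (0.54 to 0.58) for aged-GA over aged. Against non-globin UMIs the directions were the same and the first ratio was closer to 0 (37049, 33809 and 43171 CPM, log2 ratios -0.13 and 0.35).

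Among red cell barcodes of at least 200 genes, Alas2 had 11033, 3754 and 9944 CPM of non-globin UMIs, log2 ratios of -1.56 (-1.60 to -1.51) and 1.41 (1.37 to 1.44). Leukocyte markers had the opposite order of libraries, at 4994, 9346 and 7727 CPM of non-globin UMIs. In the barcodes with under 3 leukocyte marker UMIs, Alas2 had 26351, 18453 and 31480 CPM and the ratios were -0.51 and 0.77, and per adult globin UMI in all barcodes of at least 200 genes they were -0.38 and 0.63. The size of the Alas2 difference thus depended on the total and the barcodes used, and its direction did not.

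Fech was also lowest in the aged library below 200 genes, but highest in the young one. It had 2008, 4970 and 4638 UMIs, or 2.79 (2.67 to 2.91), 1.86 (1.81 to 1.91) and 2.45 (2.38 to 2.52) per 10000 adult globin UMIs. Its log2 ratios were -0.58 (-0.65 to -0.50) for aged over young and 0.39 (0.34 to 0.45) for aged-GA over aged. In barcodes of at least 200 genes with under 3 leukocyte marker UMIs, Fech had 3.67, 2.91 and 3.64, and the young and aged-GA intervals (3.48 to 3.87 and 3.48 to 3.79) overlapped. Fech was thus lowest in the aged library, as Alas2 was, while the order of the other libraries differed between the genes: for Alas2 the aged-GA library was highest.

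Slc4a1 was sparse, with 367, 914 and 489 UMIs below 200 genes and a UMI in 23.9, 12.2 and 9.63% of barcodes. These shares are not matched on depth, which had medians of 8636, 4955 and 5387 UMIs. Its level there was 0.51 (0.46 to 0.56), 0.34 (0.32 to 0.37) and 0.26 (0.24 to 0.28) per 10000 adult globin UMIs, lowest in the aged-GA library. Over all red cell barcodes it was 0.85 (0.80 to 0.90), 0.41 (0.39 to 0.43) and 0.47 (0.45 to 0.50), lowest in the aged library, with a log2 ratio of 0.21 (0.10 to 0.32) for aged-GA over aged. In barcodes of at least 200 genes with under 3 leukocyte marker UMIs it had 1.47 (1.35 to 1.59), 1.60 (1.38 to 1.84) and 1.09 (1.00 to 1.18), so the young and aged levels did not differ beyond counting error and the aged-GA level was lower than both. Unlike Alas2, Fech and Bpgm, Slc4a1 was not higher in aged-GA than in aged red cells in these barcodes (log2 ratio -0.55, -0.78 to -0.32). In all barcodes of at least 200 genes the ratio was 0.10 (-0.08 to 0.28), so the sign of this difference depended on which barcodes were summed.

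Bpgm differed most of the 8 genes between young and aged red cells. Below 200 genes it had 20582, 24221 and 26201 UMIs, a median of 22, 4 and 6 UMIs per barcode. Per 10000 adult globin UMIs this was 28.6 (28.2 to 28.9), 9.07 (8.95 to 9.18) and 13.8 (13.7 to 14.0), which was 3.15-fold lower in aged than in young mice and 1.52-fold higher in aged-GA than in aged mice. The log2 ratios were -1.65 (-1.68 to -1.63) and 0.61 (0.58 to 0.63). In barcodes of at least 200 genes with under 3 leukocyte marker UMIs the levels were 33.5, 13.5 and 21.3, with log2 ratios of -1.31 and 0.65, and the order of the libraries was the same on each total used. After each barcode was thinned to 500 UMIs, Bpgm was found in 68.4, 30.7 and 39.5% of barcodes below 200 genes, against 96.7, 84.0 and 81.8% unthinned. In T-gated barcodes, for comparison, the thinned share was 1.00, 1.43 and 2.34%, and the unthinned share 10.6, 13.6 and 19.7% at a median depth of 5025, 4694 and 5916 UMIs, against 8636, 4955 and 5387 UMIs in the red cells.

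**Figure D2:**
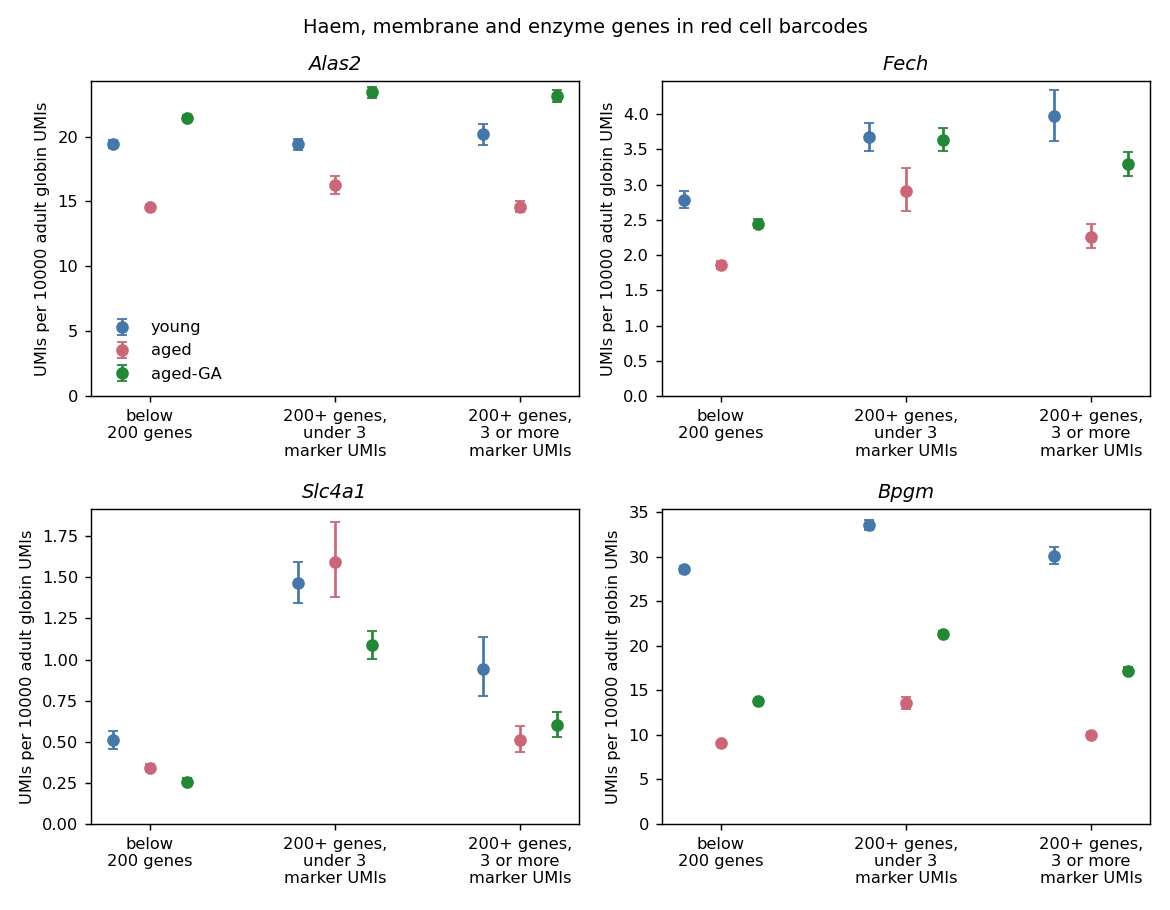
UMIs of Alas2, Fech, Slc4a1 and Bpgm per 10000 adult globin UMIs (y axis, from 0) in 3 kinds of red cell barcode (x axis), with 1 point per library and 95% counting intervals. Bpgm is highest in the young library throughout (28.6 to 33.5), Alas2 is highest in the aged-GA library, and Slc4a1 differs more between kinds of barcode than between libraries.

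Up to 299 genes, red cell barcodes with more genes held more Hbb-bt, Bpgm and Fech per globin UMI, and more UMIs in all. From barcodes of 50 to 74 genes to those of 200 to 299 genes, the Hbb-bt share of beta globin went from 11.9 to 22.5% in young, from 10.7 to 19.3% in aged and from 7.48 to 18.5% in aged-GA mice. Bpgm went from 10.7 to 33.6, from 3.22 to 13.5 and from 3.45 to 20.7 per 10000 adult globin UMIs over the same bins. Slc4a1 rested on few UMIs below 100 genes and reached 1.41, 1.54 and 0.94 at 200 to 299 genes. Alas2 moved less, from 16.9 to 19.2 in young, from 11.8 to 16.4 in aged and from 15.1 to 23.3 in aged-GA mice. Above 299 genes the libraries differed. At 300 to 599 genes, which held 22, 23 and 94 barcodes, the Hbb-bt share was 23.99, 18.01 and 19.1%. This was higher than at 200 to 299 genes in young and aged-GA mice and lower in aged mice. Fech was at 4.95, 2.27 and 3.94 per 10000 adult globin UMIs, above its interval at 200 to 299 genes beyond counting error only in young mice. Bpgm was at 32.5, 9.52 and 20.8, lower beyond counting error only in aged mice. At 600 to 1199 genes, where leukocyte marker UMIs averaged 18.2 to 23.1 per barcode, Bpgm was at 25.2, 8.93 and 13.7 and the Hbb-bt share at 21.03, 17.2 and 15.5%. The 95, 325 and 379 barcodes of 1200 genes or more averaged 36.6 to 39.9 leukocyte marker UMIs. Bpgm was higher again in them, at 31.4, 10.0 and 17.0, and the Hbb-bt share was 20.3, 17.5 and 17.7%.

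The libraries differed at the same number of genes too, in bins of all red cell barcodes that were not matched on depth or leukocyte RNA. The bin of 100 to 149 genes held 329, 2593 and 1562 barcodes with median depths of 8344, 5335 and 5484.5 UMIs. Their leukocyte marker UMIs averaged 0.22, 0.80 and 0.69 per barcode. Bpgm was at 27.1, 9.85 and 13.5 there, a log2 ratio of -1.46 (-1.50 to -1.41) for aged over young and 0.45 (0.41 to 0.49) for aged-GA over aged. Over the bins from 75 to 299 genes the aged over young ratio of Bpgm ran from -1.68 to -1.32, that of Alas2 from -0.55 to -0.23 and that of Fech from -0.56 to -0.32. For aged-GA over aged, Bpgm ran from 0.45 to 0.62, Alas2 from 0.50 to 0.59 and Fech from 0.25 to 0.34. For Slc4a1 the aged over young ratio had an interval that held 0 in each of these 4 bins, and the aged-GA over aged ratio was -0.77, -0.84 and -0.70 in the bins from 100 to 299 genes, with intervals below 0. The Hbb-bt share was 1.69 to 3.16 points lower in aged than in young mice, and 0.79 to 2.22 points lower in aged-GA than in aged mice, in every one of these bins.

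**Figure D3:**
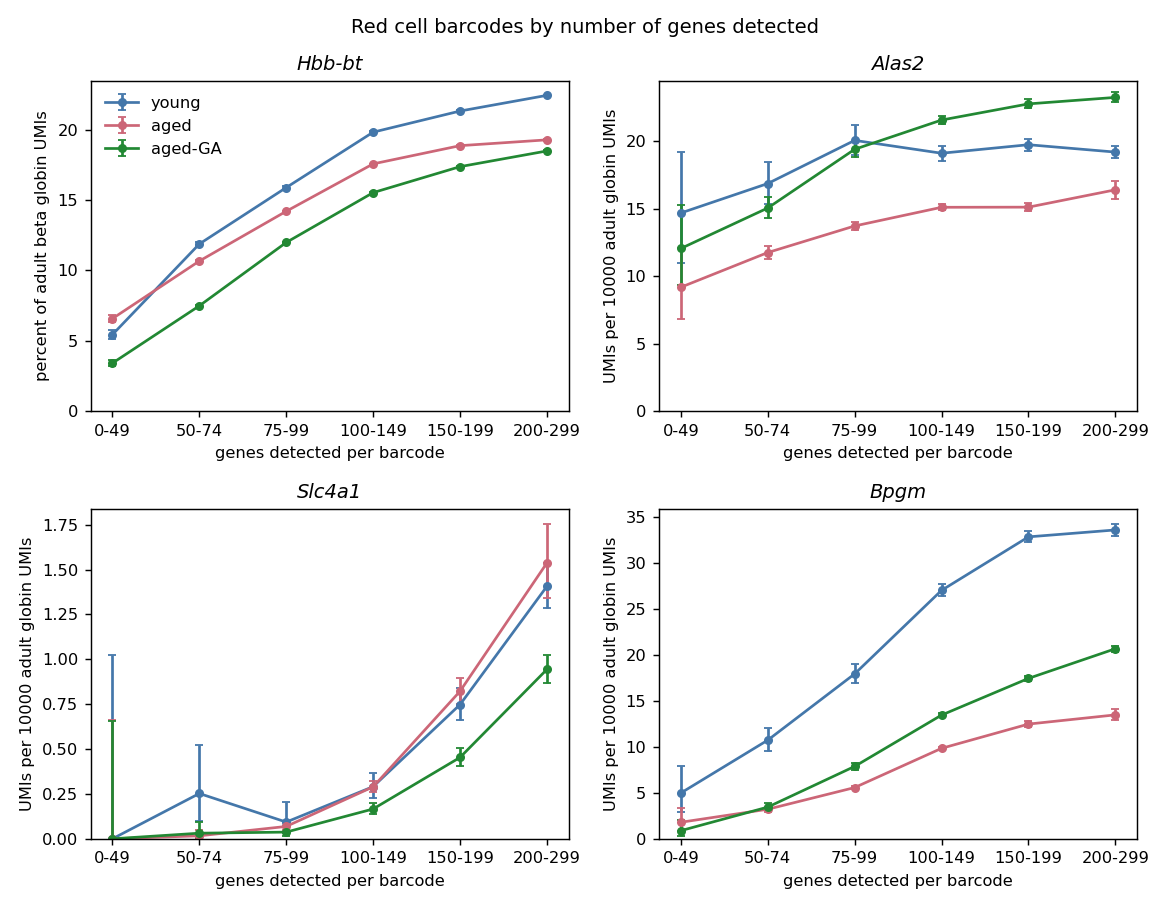
Hbb-bt as percent of adult beta globin UMIs, and Alas2, Slc4a1 and Bpgm per 10000 adult globin UMIs (y axes, from 0), by genes detected per red cell barcode (x axis), with 1 line per library and 95% counting intervals. Bins above 299 genes are not drawn. Hbb-bt and Bpgm climb with the number of genes in each library up to the last bin drawn, 200 to 299 genes. There Bpgm is at 33.6, 13.5 and 20.7 in the young, aged and aged-GA libraries.

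The members also varied together from barcode to barcode. Red cell barcodes with under 3 leukocyte marker UMIs were put in bins of their Hbb-bt share, which used no other member than the beta globins. From under 4% to over 24% Hbb-bt, Bpgm went from 10.6 to 34.2 per 10000 adult globin UMIs in young, from 1.27 to 12.7 in aged and from 1.95 to 21.3 in aged-GA mice. Alas2 went from 12.3 to 21.1, from 8.96 to 16.3 and from 11.7 to 26.4. In the aged library Slc4a1 had no UMI in the 157 barcodes under 4% and 0.71 per 10000 above 24%. In the bins above 16% Slc4a1 was higher in aged-GA than in aged mice (0.52 and 0.46, 0.68 and 0.56, and 0.86 and 0.71), with intervals that overlapped in each bin. It was also higher from 12 to 16% (0.37 and 0.31), with intervals that overlapped. From 8 to 12% it was 0.27 (0.20 to 0.35) in aged-GA and 0.069 (0.039 to 0.11) in aged mice, intervals that did not overlap. Below 8% it rested on at most 3 UMIs per bin in either library. The median number of genes also rose over these bins, from 50 to 191, from 76 to 137 and from 82.5 to 186, and its part in these differences was not tested. The alpha share lay between 32.9 and 35.8% in the bins of aged and between 34.3 and 36.6% in those of aged-GA mice, and in young mice between 30.8 and 33.4% apart from the 29 barcodes under 4% Hbb-bt, which had 26.8%.

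Other genes of haem synthesis, the membrane, enzymes, iron handling, erythroid regulation and reticulocyte maturation were compared in red cell barcodes below 200 genes, as log2 ratios of CPM of non-globin UMIs. A gene was counted where both libraries together gave it 100 UMIs or more, with 2-fold as the limit. Between aged and young mice, 6.31% of the 840 genes counted were past 2-fold lower and 36.7% past 2-fold higher, and the median of all genes was 0.43. Leukocyte markers summed to 556 CPM in barcodes of young and 3685 CPM in those of aged mice, and their part in this shift was not tested.

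None of the 4 haem synthesis genes counted of 14 was past 2-fold (median -0.22). Of 7 enzyme genes counted of 14, Bpgm (-1.37) and Car2, a carbonic anhydrase (4671 and 1538 CPM, -1.60), were lower and Gapdh, of glycolysis in all cells (52.9 and 153 CPM, 1.51), was higher. None of 3 iron genes counted of 13 was past 2-fold, though all 3 (Fth1, Ftl1 and Ncoa4) had ratios between -0.56 and -0.50. Of 3 erythroid regulators counted of 12, Lmo2 was lower (-1.05), and of 16 maturation genes counted of 20, Trim10 (-1.29) and Tspo2 (-1.18) were lower. The medians of the 6 lists lay between -0.85 and -0.22, below the median of all genes, and no gene of 5 of these lists was past 2-fold higher, the enzyme list being the exception with Gapdh.

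Between aged-GA and aged mice, none of the genes counted in any of the 6 lists was past 2-fold in either direction, where 0.97% of 1237 genes were past 2-fold higher and 2.34% lower. The membrane list had a median of -0.34, with all 7 genes counted below 0, among them Slc4a1 (-0.61) and Epb41 (-0.56), beside a median of 0.01 over all genes. The haem synthesis list, with 4 genes counted, had a median of -0.014. Of the 4 iron genes counted all had ratios above 0, with Ftl1, the ferritin light chain, at 0.34.

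**Figure D4:**
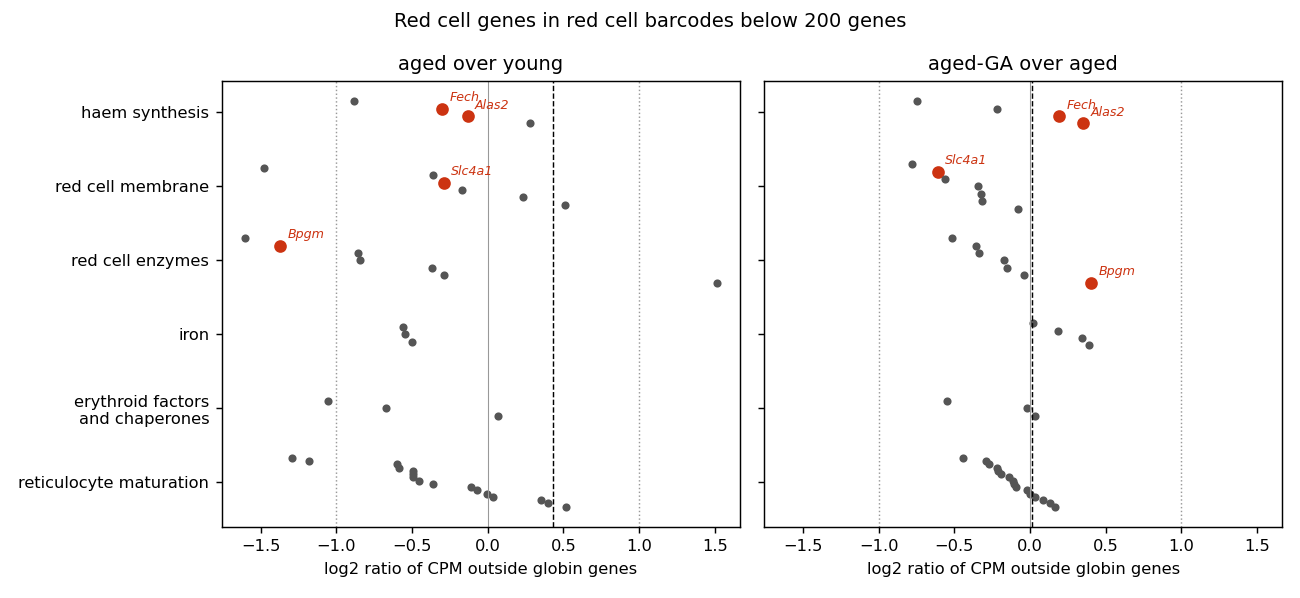
Log2 ratio of CPM of non-globin UMIs (x axis) for each gene counted, by list (y axis), in red cell barcodes below 200 genes. Large red points are Alas2, Fech, Slc4a1 and Bpgm, the dashed line is the median of all genes (0.43 for aged over young and 0.01 for aged-GA over aged), and dotted lines mark 2-fold; Bpgm lies among the lowest points for aged over young, and no listed gene is past 2-fold for aged-GA over aged.

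In barcodes of at least 200 genes with under 3 leukocyte marker UMIs, 23.9% of 347 genes were past 2-fold lower and 18.4% past 2-fold higher between aged and young mice, with a median of -0.44. Of the 38 listed genes counted, 12 were past 2-fold lower and none higher. Among the 12 were Urod (-2.29), a middle step of haem synthesis, Rhd (-1.91), of the Rh complex, Bpgm (-1.57), Car2 (-1.67), Blvrb (-1.06), Lmo2 (-1.06), Trim10 (-1.44), Tspo2 (-1.33), Ucp2 (-1.22) and Xpo7 (-1.10). Rhd rested on 10 UMIs in the aged library. Between aged-GA and aged mice none of the listed genes was past 2-fold, where 2.96% of 439 genes were higher and 10.0% lower. All 3 iron genes and 4 haem synthesis genes counted had ratios above 0 here, with medians of 0.62 and 0.58 beside 0.05 over all genes. The haem synthesis median was -0.014 below 200 genes. The membrane list, with 5 genes counted, had a median of -0.087 here, against -0.34 below 200 genes.

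The genes whose pattern was most like that of Alas2 were sought over 21 sums, 7 kinds of barcode in 3 libraries, as Pearson's r of log2 CPM of non-globin UMIs among 9670 genes. The sums share libraries and their red cell RNA, and r is given as a description. Outside the lists the 5 closest were Apol11b (r = 0.996), Rec114 (0.991), Aldh1a1 (0.984), Hbq1b, a theta-type globin gene (0.979), and Slc25a39, a mitochondrial carrier (0.979). Bpgm (0.989), Fech (0.986) and Slc4a1 (0.980) were at rank 4, 6 and 11. A high r did not mean the same order of libraries. In red cell barcodes below 200 genes Hbq1b had 654, 393 and 376 CPM and Slc25a39 6266, 4133 and 4905. Apol11b (1479, 2291 and 2239 CPM), Rec114 (966, 1435 and 899) and Aldh1a1 (519, 728 and 513) were higher in aged than in young mice there, where Alas2 was lower.

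Outside red cells, globin UMIs were counted in barcodes that passed the study's filters on cells and were assigned to T, B, NK or myeloid cells by markers. In the young, aged and aged-GA libraries the median T-gated barcode held 5, 27 and 23 adult globin UMIs and the median B-gated barcode 4, 25 and 21. NK-gated barcodes held 4, 27 and 21 and myeloid-gated ones 5, 29 and 24. Within a library the 4 kinds of cell thus had a like number, and both aged libraries had a higher number than the young one in each. In T- and B-gated barcodes together, adult globin was 3.00 higher on the log2 scale of CPM in aged than in young mice, and 2.51 higher among barcodes of at most 1% globin. Red cells also took a larger share of barcodes in the aged libraries (13.02, 38.5 and 30.5%). For aged-GA over aged the ratio was -0.34, but that of mean globin UMIs per barcode was 0.00053, and aged-GA lymphocytes held more UMIs in all (a median of 4293 against 3377).

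Globin UMIs rose less than depth. From the shallowest to the deepest quartile of T-gated barcodes, the median depth went from 2848 to 7719 UMIs in the aged library and median globin from 23 to 34 UMIs, and in the young library from 3561 to 7180 and from 4 to 6 UMIs. A second set of lymphocyte barcodes held far more globin. Over 20% globin was found in 21, 208 and 256 T- and B-gated barcodes. Their medians were 4545, 2911 and 3860 globin UMIs, beside 9033, 4868 and 5534 in red cell barcodes. Barcodes of over 50% globin were classed as red cells, so this set was limited to 20 to 50% globin. How far the limit lowered its medians was not tested. Red cell barcodes of at least 200 genes with 3 or more leukocyte marker UMIs had medians of 9347, 5509 and 6098.5 globin UMIs.

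**Figure D5:**
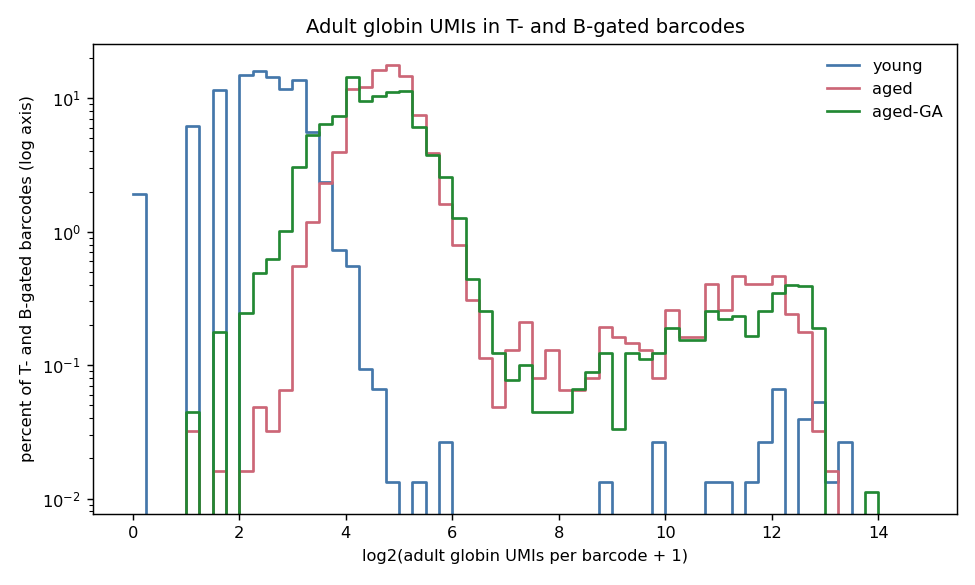
Percent of T- and B-gated barcodes (y axis, log scale) by log2 of adult globin UMIs per barcode plus 1 (x axis), with 1 line per library. The main peak lies lower in the young library, with a median of 4 UMIs against 26 in the aged and 22 in the aged-GA library, and each library has a small second set near the globin content of red cells. Barcodes of over 50% globin were classed as red cells and are not drawn.

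The make-up of this globin differed from that of red cells of the same library. In T- and B-gated barcodes of at most 1% globin the alpha share of adult globin UMIs was 25.001% (24.6 to 25.4), 26.7% (26.4 to 26.9) and 28.2% (28.0 to 28.4), which was 7.94, 7.13 and 7.04 points below red cell barcodes. The order of the libraries was that of red cells. In barcodes of over 20% globin the alpha share was 31.2, 33.4 and 35.4%, beside 32.9, 33.8 and 35.2% in red cells. Their Hbb-bt share of beta globin UMIs was 18.7, 14.0 and 13.9%, below that of red cells in each library (20.7, 16.8 and 16.4%). Hbb-bt took 22.3% (21.8 to 22.8) of beta globin UMIs in the barcodes of at most 1% globin in young mice, above red cells, and 14.8% (14.5 to 15.0) and 13.7% (13.5 to 13.8) in aged and aged-GA mice, below them.

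Over all lymphocyte barcodes Alas2 stood in nearly the red cell ratio to globin, but not over those of little globin. T-gated barcodes held 272, 565 and 1516 Alas2 UMIs, or 21.8 (19.3 to 24.5), 13.6 (12.5 to 14.7) and 22.5 (21.4 to 23.6) per 10000 adult globin UMIs, and red cell barcodes 19.5, 14.6 and 22.1, inside each interval. B-gated barcodes, at 20.1, 14.2 and 21.4, also had intervals that held the red cell value. Most Alas2 UMIs of T- and B-gated barcodes (242 of 338, 904 of 1221 and 2147 of 2808) lay in those of over 20% globin. Among barcodes of at most 1% globin the ratio was 25.2 (20.4 to 31.0), 17.8 (15.5 to 20.5) and 25.2 (22.9 to 27.7), above red cells in each library.

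Bpgm and Fech were found in lymphocytes beyond their red cell ratio to globin. In T- and B-gated barcodes of at most 1% globin, Bpgm had 740, 432 and 1221 UMIs, or 203, 38.3 and 70.5 per 10000 adult globin UMIs, beside 30.2, 9.33 and 15.8 in red cell barcodes. Its level in these barcodes was 20.2, 21.8 and 29.7 CPM of non-globin UMIs. The log2 ratio was 0.11 (-0.06 to 0.28) for aged over young and 0.43 (0.27 to 0.59) for aged-GA over aged. Adult globin was 2.51 higher on the log2 scale in the aged than in the young library. The source of the Bpgm RNA in these barcodes was not tested. Fech had 428, 312 and 708 UMIs there, or 11.7, 15.7 and 17.2 CPM. Slc4a1 had 4, 8 and 7 UMIs in the same 7514, 4633 and 7829 barcodes, at 1.10 (0.30 to 2.81), 0.71 (0.31 to 1.40) and 0.40 (0.16 to 0.83) per 10000 adult globin UMIs, intervals that held the red cell values of 0.85, 0.41 and 0.47.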

How the data were processed

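The authors ran droplet-based 3′ single-cell RNA sequencing on PBMCs, used Cell Ranger for mapping, and deposited unnormalized UMI counts per gene and barcode for each of the 3 libraries. The matrix headers name Cell Ranger 5.0.0, the study's methods name another version, the submitters' processing notes give the build mm10, and the annotation is not given in the sources used here. The 8 genes and the gene lists were chosen with earlier results of these data known.

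UMIs of each gene were summed per library and kind of barcode. Red cell barcodes had over 50% of UMIs in the 8 Hba- and Hbb- genes and were split at 200 genes. Other barcodes passed the filters of the study's methods (200 genes or more, at most 90% of the largest gene number and at most 7.5% mitochondrial UMIs) and were assigned to T, B, NK or myeloid cells with at least 3 UMIs of that type's 8 markers and 3 times those of each other type. No doublet caller was run, and barcodes of mixed markers were left unassigned. Levels are UMIs per 10000 UMIs of the 4 adult globins or CPM of UMIs outside Hba- and Hbb- genes. Log2 ratios used a pseudocount of 1 on the CPM scale of the total used. Intervals are exact Poisson (UMIs) and exact binomial (shares) 95% intervals, and counting intervals on the log scale (ratios). The Poisson intervals and the log2 ratios themselves were tested on simulated data, and the other intervals were not. Shares of barcodes with a UMI are given for Bpgm with and without thinning to 500 UMIs, and for Slc4a1 without thinning. The text names all 8 genes, the embryonic globins, listed genes past 2-fold (at most 4 per direction and list), and the 5 genes outside the lists closest to Alas2 among genes with at least 500 UMIs. Fth1, Ftl1, Ncoa4 and Epb41, listed genes that this rule leaves out, were named after their values were seen. A few genes that the rule names are not reported here. Alternatives changed the limits on globin, genes, markers and mitochondrial UMIs, the total, the pseudocount and the mean taken. Python 3.11.15, numpy 2.4.6, scipy 1.17.1, pandas 2.3.3 and matplotlib 3.10.9 were used.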

Additional observations from a re-analysis of the deposited data

How the results depend on the processing

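With 1 library per group no replicate could be left out, and no test was run, so an alternative is compared with the value in the report by size and direction only. No paired analysis was possible because each group was 1 library with no replicate number. Of 48 alternatives to the 11 main results, 9 stayed within the counting interval, 36 moved past it in the same direction and 3 reversed. Alas2 in red cell barcodes of at least 200 genes (-1.56 for aged over young and 1.41 for aged-GA over aged) became -0.31 and 0.57 with over 80% globin, -0.71 and 0.58 with at least 500 genes, -0.51 and 0.77 without barcodes of 3 or more leukocyte marker UMIs, -0.63 and 0.81 over all UMIs and -1.19 and 0.82 as mean UMIs per barcode. It became -0.38 and 0.63 over adult globin UMIs and -0.13 and 0.35 below 200 genes, alternatives chosen after seeing the data. For Slc4a1, aged-GA over aged reversed to -0.51 with over 80% globin, -0.31 without barcodes of 3 or more leukocyte marker UMIs and -0.61 below 200 genes; the other 45 alternatives for Fech, Slc4a1 and Bpgm kept the direction. The alpha share of red cells, 0.84 points higher in aged than in young mice, was 0.81 points higher with over 80% globin and 1.14 as a mean per barcode, and reversed to -0.029 with at least 200 genes. For aged-GA over aged it was 1.34 with at least 200 genes and 1.66 as a mean per barcode. The Hbb-bt share, aged over young, was -3.99 with over 80% globin and -3.98 with at least 200 genes. For aged-GA over aged it was -0.54 and -1.23 with over 80% globin and as a mean per barcode, and reversed to 0.18 with at least 200 genes. Globin in T- and B-gated barcodes, aged over young and aged-GA over aged, was 2.51 and -0.43 without barcodes over 1% globin, 2.76 and 0.00053 (reversed) as mean UMIs per barcode, 3.06 and -0.38 with no mitochondrial limit, 3.12 and -0.36 in T-gated barcodes alone and, chosen after seeing the data, 2.80 and -0.51 without barcodes over 5% globin and 2.70 and -0.24 as the median per barcode. The alpha share of lymphocytes minus red cells, -3.25, -1.37 and -0.85 points in young, aged and aged-GA mice, was -7.94, -7.13 and -7.04 without barcodes over 1% globin. Other causes of these moves were not tested. Slc4a1 rested on the fewest UMIs of the 4 genes outside globin, and the split of Hba-a1 from Hba-a2 rests on few bases.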
